A study of Mus musculus with 24 samples.

Results

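Colorectal tumours were compared with acutely injured colon in mice, to separate what neoplastic tissue expresses from what regenerating and inflamed tissue expresses. Of the 24 libraries of the series, 12 entered the comparison, chosen by their labels alone: 6 tumours and 6 colons at day 7. All mice were C57BL/6. The tumours came from animals given azoxymethane and dextran sulfate sodium (AOM/DSS), a mutagen followed by a detergent-like polymer that strips the colonic epithelium, and 3 came from wild-type (WT) mice and 3 from mice with an Axin1 knockout (KO) specific to intestinal epithelial cells. The injured colon came from 3 WT and 3 KO mice given DSS and sacrificed at day 7. Their labels name DSS and do not mention AOM. A further 6 libraries of colon from untreated mice on water (3 WT, 3 KO) served as the undamaged reference. Age, sex, dose, the day of tumour collection, the Cre driver of the knockout and the part of the colon are not stated in the labels or the design text. Each group holds 3 biological replicates per the study's design text.

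Axin1 holds together the protein assembly by which beta-catenin is degraded, and loss of that assembly, in colon tumours most often through Apc or beta-catenin mutation, lets beta-catenin switch on genes with the TCF/LEF factors. Crypt stem cells depend on the same Wnt signal, and among the genes it switches on are its own inhibitors, such as Axin2 and Notum. Injured colon, in contrast, is repaired by epithelium that divides rapidly and takes on a fetal-like state marked by Ly6a (Sca-1), while neutrophils and monocytes enter the mucosa.

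The 12 libraries held between 15.65 M and 25.27 M expected counts. Levels below are CPM (counts per M counts of the scaled library), differences are log2 tumour minus day 7 ± standard error with genotype as a blocking term, and a gene is called higher or lower when its adjusted p is under 0.05 (edgeR's quasi-likelihood test over 18221 genes). Axin1 checked the labels: in tumours it stood at 54.9 ± 4.45 CPM in WT and 18.1 ± 1.41 in KO (SD, n = 3 each), and at day 7 at 50.6 ± 1.61 and 16 ± 0.404. The KO level was 33% of WT in tumours and 31.6% at day 7, with an exact two-sided permutation p of 0.1 in each, the smallest that 3 against 3 libraries allow. Axin1 itself did not pass between tissues (0.12 ± 0.07, adjusted p 0.194). Mitochondrial transcripts took 2.97% to 3.93% of the counts of tumours and 4.65% to 5.72% at day 7. By Y-linked genes and Xist, 4 of the 6 tumours, 1 of the 6 day 7 colons and 5 of the 6 untreated colons were male, so sex was not balanced between the tissues.

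The first principal component held 63.7% of the variance and separated all tumours from all day 7 colons. Of 18221 genes tested, 8962 passed (49.2%), 4435 of them higher in tumours (24.3%) and 4527 lower (24.8%). Over 2-fold were 2357 of the higher genes (12.9% of those tested) and 2281 of the lower ones (12.5%). On the authors' TPM scale, with limma on log2(TPM + 1), the split was 7892 higher and 2653 lower, and the median of all genes lay 0.25 above that on the count scale. Because so many genes differed, the counts for the gene groups below are set against these shares, and the median over all genes was 0.02. In bulk RNA, fewer cells of a type and less RNA per cell cannot be told apart.

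Promoters of 4 genes are printed because groups of genes that moved together are known to answer to the factors whose motifs were searched in them. Each is the 250 bases before a RefSeq start site on GRCm38.p6, plus strand, 5′ to 3′, with the motif in capitals: TCF/LEF in Sp5, AP-1 in Mmp7 and Mmp13, and NF-kB in Cxcl2.
Sp5, chr2:70474673-70474922: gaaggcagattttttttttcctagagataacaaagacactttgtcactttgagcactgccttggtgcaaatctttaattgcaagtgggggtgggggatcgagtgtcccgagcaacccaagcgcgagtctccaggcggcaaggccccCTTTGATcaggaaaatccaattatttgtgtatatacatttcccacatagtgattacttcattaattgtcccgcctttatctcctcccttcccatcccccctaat
Mmp7, chr9:7691840-7692089: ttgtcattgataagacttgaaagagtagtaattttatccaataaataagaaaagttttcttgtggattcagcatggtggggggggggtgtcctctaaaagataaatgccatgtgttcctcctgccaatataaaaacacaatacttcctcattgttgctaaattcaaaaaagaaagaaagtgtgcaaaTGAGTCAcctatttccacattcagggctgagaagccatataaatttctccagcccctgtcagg
Cxcl2, chr5:90903649-90903898: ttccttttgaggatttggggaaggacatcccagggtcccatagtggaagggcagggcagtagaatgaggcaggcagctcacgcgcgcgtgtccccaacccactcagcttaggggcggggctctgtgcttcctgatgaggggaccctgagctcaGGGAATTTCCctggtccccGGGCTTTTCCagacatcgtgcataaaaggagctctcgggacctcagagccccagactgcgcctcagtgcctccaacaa
Mmp13, chr9:7272264-7272513: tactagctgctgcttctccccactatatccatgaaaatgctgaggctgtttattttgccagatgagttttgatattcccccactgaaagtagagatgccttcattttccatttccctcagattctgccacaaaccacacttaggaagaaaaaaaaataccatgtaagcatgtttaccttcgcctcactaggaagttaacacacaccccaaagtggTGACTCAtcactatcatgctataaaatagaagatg
The search used windows from 250 bases before to 50 after each start, on both strands. CTTTGAT (TCF/LEF) was in 4 of 22 windows of the Wnt target list (18.2%), against 3.73% of all 32851 windows. The Sp5 match began 104 bases before the start. The NF-kB motif (GGG, 2 free bases, TTTCC) was in 4 of 16 windows of the cytokine list (25%) against 1.63% of all, and Cxcl2 held it at 97 and at 78 bases before the start. TGANTCA (AP-1) was in 7 of the same 16 windows (43.8%) and in 5 of 11 windows of the metalloproteinase list (45.5%), against 7.81% of all. It lay 63 bases before the start of Mmp7 and 35 before that of Mmp13. Mmp7 also held TCF/LEF on the other strand, 4 bases after its start and outside the printed bases. TCF/LEF was in 2 of the 11 metalloproteinase windows (18.2%), and both belong to Mmp7, which stands in the Wnt target list too. The same 2 windows are among the 4 of that list, the others being of Sp5 and Tnfrsf19. TTTCCCGC (E2F) was in 1 of 17 windows of the cell cycle list (5.88%) against 1.07%. Several windows belong to the same gene, and a match describes the letters only.

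Genes switched on by beta-catenin and TCF/LEF were mostly higher in tumours. Of 20 Wnt target genes tested, 18 were higher in tumours and none lower, with a median difference of 3.16 and no overlap between the 6 tumours and the 6 day 7 colons for 16 of them (no overlap in 24.1% of all genes). Axin2, a negative regulator that is itself a Wnt target, stood at 176, 398 and 410 CPM in the WT tumours and 423, 353 and 417 in the KO tumours, and at day 7 at 17.6, 16.4 and 21 in WT and 37, 33.3 and 40.3 in KO. Every tumour was above every injured colon, WT tumour replicate 1 was the lowest tumour, and at day 7 all 3 KO colons lay above all 3 WT colons. The difference was 3.76 ± 0.23 (adjusted p 1.77e-06), 13.5-fold.

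Lgr5, the receptor that marks crypt base stem cells, measured 84.4, 116 and 66 CPM in WT tumours and 79.4, 98.3 and 87.3 in KO tumours, but 2.78, 0.192 and 0.522 in WT and 3.85, 1.79 and 1.5 in KO at day 7. Tumours were 49.6-fold higher (5.63 ± 0.49, adjusted p 1.04e-05). Untreated colon lay between them at 7.3 ± 2.9 CPM (SD, n = 6), so Lgr5 was lower at day 7 than in untreated colon (-2.08, adjusted p 0.00186) and higher in tumours (3.62, adjusted p 9.29e-07). Prox1, a homeobox factor, rose from 0.87 to 4.22 CPM at day 7 to 221 to 420 CPM in tumours (7.26 ± 0.35, adjusted p 4.5e-07). It is also a lymphatic endothelial marker, as is Lyve1, which did not pass (-0.03 ± 0.36, adjusted p 0.956). Which cells the Prox1 RNA came from was not tested. Sox4, a progenitor transcription factor, was 240 to 456 CPM in tumours and 15.7 to 36.2 at day 7 (4.07 ± 0.25), and the TCF/LEF factors Lef1 and Tcf7 were higher by 5.20 ± 0.39 and 3.52 ± 0.24. Sp5, a transcription factor induced by Wnt, was at 64.2 ± 30.8 CPM in tumours and 0.157 ± 0.226 at day 7 (8.71 ± 0.74, adjusted p 9.18e-06).

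**Figure D1:**
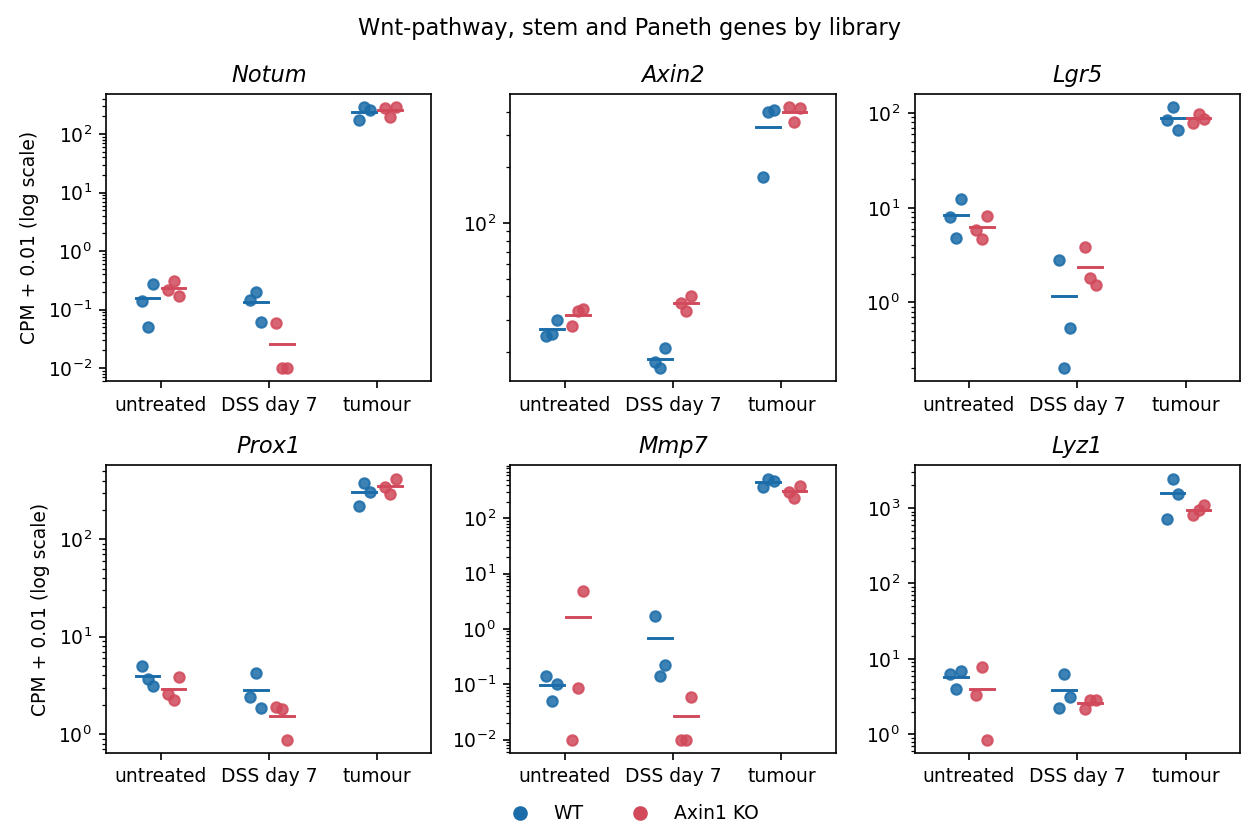
Levels of 6 Wnt, stem cell and Paneth genes (CPM + 0.01, log axis) in each library of untreated colon, DSS day 7 colon and tumours; points are libraries, blue WT and red Axin1 KO, and short lines are the means of each group of 3. All 6 tumours lie above all day 7 and untreated libraries in each panel, and Lgr5 is lower at day 7 than in untreated colon.

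The Wnt targets that also serve cell division differed less. Ccnd1 (cyclin D1) was 0.95 ± 0.17 higher in tumours (adjusted p 0.000724) and Myc 0.63 ± 0.22 higher (adjusted p 0.0312), with Myc at 60.2 to 131 CPM in tumours and an overlapping 38 to 86.6 at day 7. Both were also above untreated colon at day 7, Ccnd1 by 1.13 and Myc by 1.48 (adjusted p 0.000103 and 2.31e-05), and in tumours by 2.11 and 2.14. The Myc call was lost in 6 of the alternative analyses. The 2 members of the list that did not pass were the tight junction gene Cldn2 (0.61 ± 0.57, adjusted p 0.394) and Ccn4 (1.27 ± 0.50, adjusted p 0.0522). Against untreated colon, 19 of the 20 targets were higher in tumours (median 2.83) while at day 7 3 were higher and 3 lower (median -0.11). Those 2 comparisons use the same untreated libraries, and over all genes 34.5% were higher in tumours and 14.9% at day 7 (28.4% and 10.3% lower).

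Inhibitors of Wnt signalling went in both directions. Of 13 tested, 7 were higher in tumours and 5 lower. Notum, a secreted enzyme that inactivates Wnt proteins by removing their lipid, was close to absent from injured colon: 0.134, 0.192 and 0.0522 CPM in WT and 0.0481, 0 and 0 in KO at day 7, against 175, 289 and 253 in WT tumours and 282, 193 and 287 in KO tumours. No value of either tissue came near the other, and the difference was 11.73 ± 0.40 (adjusted p 5.1e-08), 3400-fold. An antisense transcript at the same locus, Notumos, was also high in tumours, but the strand setting is not given, so its reads cannot be told apart from those of Notum. Wif1, a secreted Wnt-binding inhibitor, rose from 0.242 to 1.73 CPM to 166 to 546 CPM (386-fold). The intracellular inhibitor Nkd1 was 5.29 ± 0.57 higher, the membrane protein Apcdd1 7.10 ± 0.77 and the secreted Dkk2 6.01 ± 0.66.

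The secreted frizzled-related proteins went the other way. Sfrp2 (-2.06 ± 0.62), Sfrp4 (-2.91 ± 0.63) and Sfrp5 (-2.52 ± 0.42) were lower in tumours, as were Nkd2 (-1.75 ± 0.39) and the co-repressor Tle4 (-0.99 ± 0.24). Sfrp1 did not pass (-0.58 ± 0.43, adjusted p 0.287). At day 7 none of the 13 passed against untreated colon in edgeR (1 was lower in DESeq2), where 7 were higher and 5 lower in tumours. Of Wnt ligands, Wnt10a came up among the largest differences of all genes: 14.2 to 66.8 CPM in tumours against at most 0.0896 CPM at day 7 (10.27 ± 0.59, adjusted p 1.77e-06).

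Stem cell markers mostly followed the Wnt targets, with 11 of 15 higher in tumours, 2 lower and a median of 1.44. Lgr5, Ascl2 (3.79 ± 0.52), Tnfrsf19 (4.85 ± 0.44), Cd44 (2.79 ± 0.29) and Sox9 stand in both lists. Outside the overlap, Msi1, an RNA-binding protein of progenitors, was 4.16 ± 0.41 higher and the matrix protein Smoc2 2.81 ± 0.27 higher. The 2 lower members were Lrig1 (-0.71 ± 0.16), a brake on EGF receptor signalling, and Rgmb (-0.79 ± 0.13). Olfm4, a widely used human stem cell marker, was at 1.08 ± 1.88 CPM in tumours and did not pass (adjusted p 0.124). At day 7 the median of the list against untreated colon was -0.18, with Ascl2 lower (-1.41, adjusted p 0.0205) along with Lgr5.

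Paneth cells, the defensin-secreting cells of the small intestine, are not found in normal mouse colon, whose deep crypt secretory cells are their nearest counterpart. In all, 10 of 12 of their markers were higher in tumours and none lower, with a median of 7.31. Lyz1, their lysozyme, measured 726, 2470 and 1540 CPM in WT tumours and 809, 930 and 1090 in KO tumours, against 2.16 to 6.27 at day 7. The matrix metalloproteinase Mmp7, which activates defensins and is also a Wnt target, measured 365, 526 and 475 CPM in WT and 303, 238 and 389 in KO tumours. At day 7 it was at most 1.7 CPM and 2 KO libraries had none, a 1170-fold difference (10.19 ± 0.72, adjusted p 3.31e-06, and 12.2 without WT day 7 replicate 1). The lectin Itln1 was higher by 8.22 ± 0.86 and Habp2 by 4.48 ± 0.31. Alpha-defensin genes filled 8 of the 15 largest increases. Among them was Defa24, at 45.5 to 484 CPM in tumours and at most 0.0962 at day 7 (12.35 ± 0.85, and 13.54 without KO day 7 replicate 1). These genes are near-identical copies, so how reads were divided among them is uncertain. The 2 members that did not pass were Ang4 (1.73 ± 1.2, adjusted p 0.25) and the stress gene Nupr1 (-0.02 ± 0.19, adjusted p 0.943), and none of the 12 passed between day 7 and untreated colon in edgeR (2 were higher without KO untreated replicate 3, and 1 was lower in DESeq2).

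Other genes among the largest increases were silent in every day 7 library. T (brachyury), a mesoderm transcription factor, was at 9.74 to 45 CPM in tumours, at least 1080-fold higher than the floor of 3 counts over the 6 day 7 libraries. The serine protease Prss56 was at 9.28 to 87.9 CPM, at least 1750-fold higher, and the hepatokine Lect2, at 1.12 to 9.84 CPM, at least 270-fold higher. Untreated colon had no count of T or Prss56 in any of its 6 libraries.

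**Figure D2:**
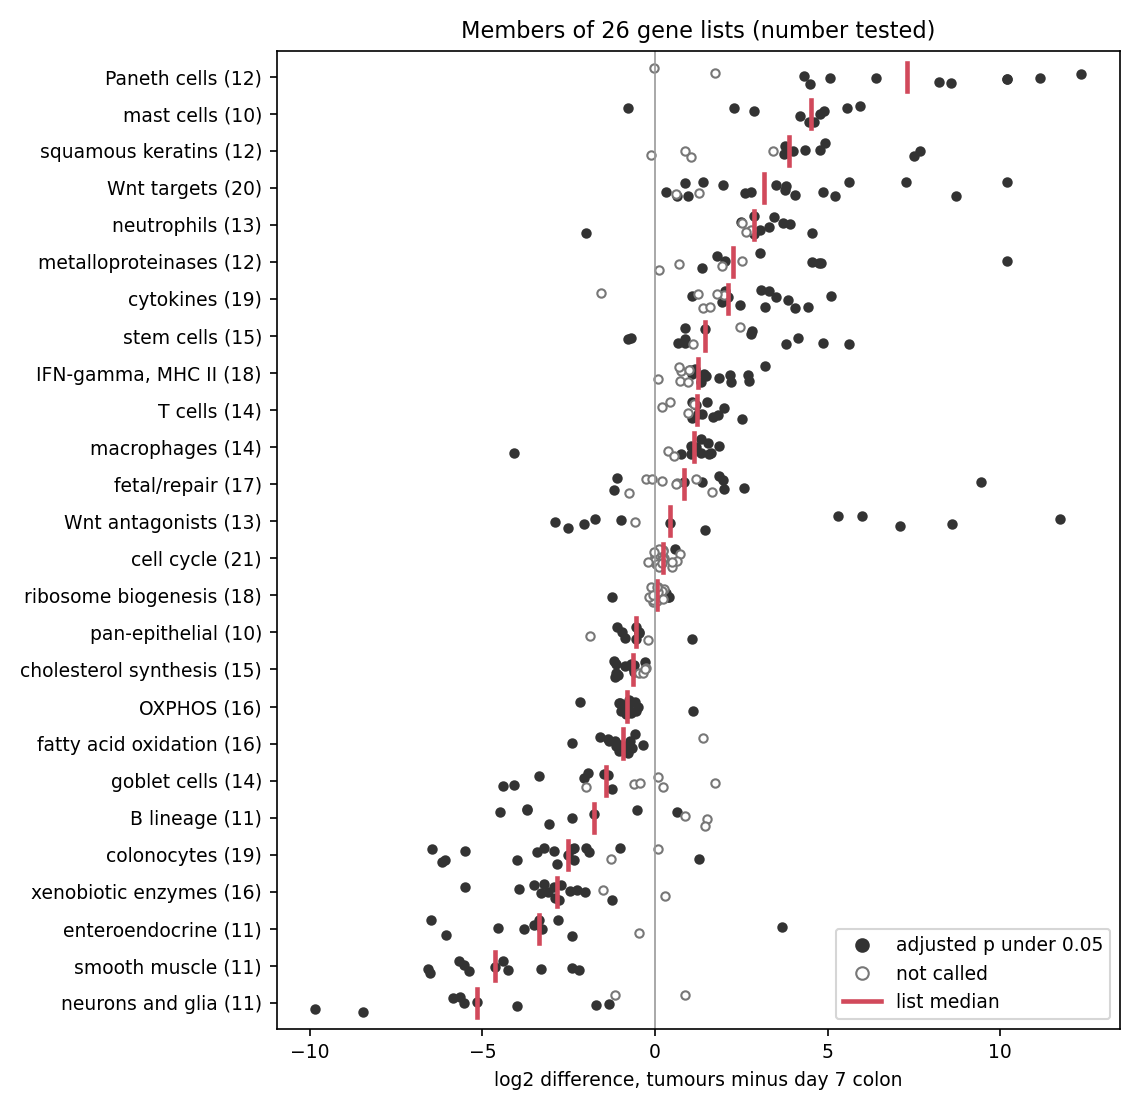
Difference of every tested member of 26 gene lists (log2 tumour minus DSS day 7, horizontal axis), lists ordered by their median; filled points passed at an adjusted p under 0.05, open points did not, and red bars are list medians. Paneth, mast cell, squamous and Wnt target genes lie to the right, cell cycle and ribosome biogenesis genes around 0, and smooth muscle and neural genes to the left.

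Few genes of cell division passed between tumours and injured colon. Of 21 cell cycle and DNA replication genes, 1 was higher in tumours and none lower, with a median of 0.22. Mki67, the proliferation marker, stood at 233, 190 and 169 CPM in WT and 306, 281 and 231 in KO tumours, and at 231, 92.7 and 116 in WT and 402, 395 and 214 in KO at day 7. The ranges overlapped and the difference was 0.03 ± 0.25 (adjusted p 0.937), an error too wide to show that the levels are equal. At day 7 the highest values were those of KO replicates 1 and 2, and the difference within each genotype was 0.38 in WT and -0.32 in KO, neither of which passed. The replication helicase genes did not pass either: Mcm2 differed by 0.23 ± 0.12 and Mcm4 by 0.24 ± 0.12. The single call, Top2a (0.57 ± 0.21, adjusted p 0.0437), was lost in 13 alternative analyses. On the log2(TPM + 1) scale, where all genes shifted up by 0.25, 15 of the 21 were called higher in tumours.

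Both tissues were above untreated colon in this list: 19 of 21 genes were higher in tumours (median 1.5) and 16 at day 7 (median 1.17). Rrm2, a subunit of the enzyme that makes deoxynucleotides, was higher by 2.63 in tumours and by 2.39 at day 7 (adjusted p 4.3e-09 and 3.6e-07). Mki67 itself did not pass in either (0.81 and 0.75, adjusted p 0.0644 and 0.151), and without KO untreated replicate 3, which stands apart from the other untreated libraries, it passed in both (1.44 and 1.38, adjusted p 0.000271 and 0.0015). Without that library all 21 genes were higher in tumours and all 21 at day 7. Genes of ribosome production behaved alike: 3 of 18 were higher in tumours than at day 7 and 1 lower (median 0.06), while 17 of 18 were higher than untreated colon in tumours (median 0.98) and 17 at day 7 (median 0.91). Polr1a, the large subunit of RNA polymerase I, was the most changed of the higher ones at 0.41 ± 0.10, and Utp20 the lower one (-1.23 ± 0.21). On the log2(TPM + 1) scale 11 of the 18 were higher.

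The fetal-like repair program was shared in part. Ly6a, its surface marker, measured 930, 566 and 841 CPM in WT and 308, 533 and 471 in KO tumours, and 752, 880 and 1180 in WT and 331, 563 and 626 in KO at day 7. Tumours and injured colon overlapped (-0.27 ± 0.21, adjusted p 0.295), both lay above the untreated mean of 184 CPM (1.75 and 1.99, adjusted p 4.3e-06 and 9.52e-06), and in each tissue WT had the higher mean. Of 17 such genes tested, 7 were higher in tumours and 2 lower, with a median of 0.83. Krt7, a keratin of simple ducts, was at 406 to 575 CPM in tumours and 101 to 150 at day 7 (1.99 ± 0.13, adjusted p 1.77e-06). Clu, a marker of revival stem cells, was 1.98 ± 0.51 higher and the alarmin Il33 2.58 ± 0.54 (3.19 without WT day 7 replicate 2). The calcium-binding annexins moved apart, Anxa1 higher (0.83 ± 0.21) and Anxa3 lower (-1.11 ± 0.19).

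The second lower gene of that list was Areg (amphiregulin), a ligand of the EGF receptor, at 6.25 to 57.2 CPM in tumours and 37.8 to 116 at day 7 (-1.19 ± 0.39, adjusted p 0.0256), a call lost in 9 alternatives. Among 11 EGF receptor ligands and receptors, 1 was higher in tumours, Tgfa (0.51 ± 0.11), and 4 were lower, Egf, Areg, Erbb2 and Erbb3. Erbb2 and Erbb3 changed by -0.40 ± 0.14 and -0.51 ± 0.17, and without WT tumour replicate 3 1 gene of the list was called lower. Ereg was above untreated colon by 2.74 in tumours and 2.49 at day 7 and did not differ between them (0.22 ± 0.56, adjusted p 0.77).

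**Figure D3:**
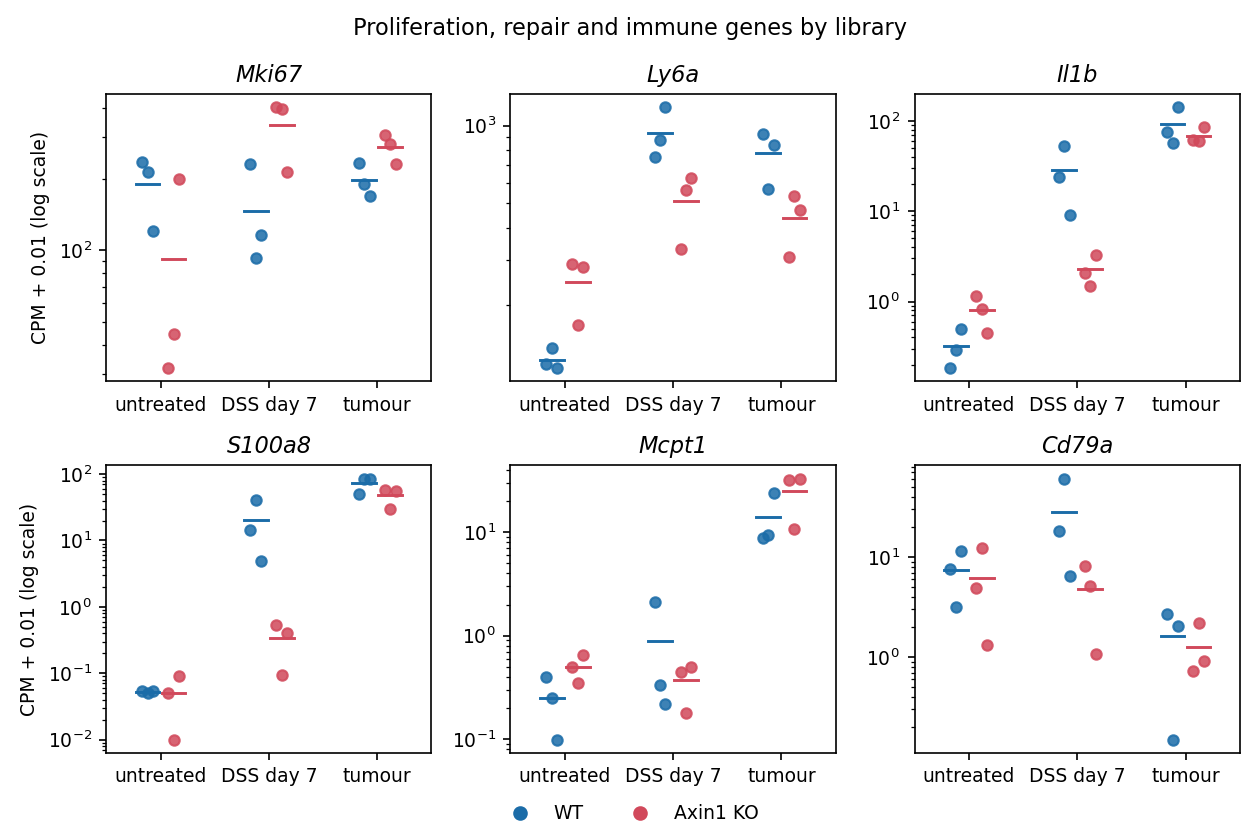
Levels of 6 proliferation, repair and immune genes (CPM + 0.01, log axis) per library of untreated colon, DSS day 7 colon and tumours; blue points are WT, red points Axin1 KO, and short lines group means of 3. Mki67 and Ly6a overlap between day 7 and tumours, Il1b and S100a8 are lower at day 7 in KO than in WT, Mcpt1 is high in tumours and Cd79a low.

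Genes of acute inflammation were mostly higher in tumours than in day 7 colon. Of 19 cytokine and chemokine genes tested, 13 were higher in tumours and none lower, with a median of 2.12. Il1b, a pyrogenic cytokine of myeloid cells, stood at 76, 57 and 143 CPM in WT and 60.9, 59.4 and 86.7 in KO tumours, and at 24, 52.4 and 9.19 in WT and 2.07, 1.49 and 3.24 in KO at day 7 (3.18 ± 0.68, adjusted p 0.00266). Every tumour exceeded every injured colon, and the lowest 3 of the 12 were the KO day 7 colons. The neutrophil attractant Cxcl2 was at 14 to 124 CPM in tumours and 0.192 to 17.3 at day 7 (4.04 ± 0.86), and Cxcl9, induced by interferon-gamma, at 8.42 to 390 against 0.192 to 11.4 (5.09 ± 0.79, and 4.47 without WT tumour replicate 3). Il6 was higher by 2.12 ± 0.70 (adjusted p 0.0251), a call lost in 5 alternatives. The lymphocyte cytokines Il17a (1.39 ± 0.75, adjusted p 0.143) and Il22 (-1.55 ± 0.83, adjusted p 0.141) did not pass, nor did Tnf (1.24 ± 0.50, adjusted p 0.0564). Against untreated colon all 19 were higher in tumours (median 6.29) and 13 at day 7 (median 3.19).

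Neutrophil genes gave the same picture, with 9 of 13 higher in tumours and 1 lower (median 2.86). S100a8, a subunit of the antimicrobial protein calprotectin, measured 50.7, 84.4 and 86 CPM in WT and 58.7, 30.3 and 54.8 in KO tumours, and 14.3, 40.9 and 4.96 in WT and 0.529, 0.0852 and 0.387 in KO at day 7. The difference was 3.91 ± 0.99 (adjusted p 0.00668), the WT day 7 colon of replicate 2 lay within the tumour range (4.57 without it), and without the genotype term the adjusted p was 0.0555. Trem1, an activating receptor of neutrophils and monocytes, was 3.46 ± 0.77 higher and the granulocyte growth factor receptor Csf3r 3.04 ± 0.68 (4.17 and 3.71 without WT day 7 replicate 2). Ly6g, whose protein identifies neutrophils by flow cytometry, ran opposite to the rest: 71.1, 66.7 and 50.6 CPM in WT and 13.7, 48.4 and 64.2 in KO tumours, 254, 292 and 309 in WT and 136, 140 and 154 in KO at day 7. Its untreated level was already 114 CPM, where S100a8 was at 0.0413. The summed level of the list was 202 to 412 CPM in tumours, within the 140 to 513 CPM at day 7. Ly6g made up most of that sum in each day 7 colon, from 292 of 513 CPM in WT replicate 2 to 140 of 142 in KO replicate 2. In tumours Ly6g was at most 71.1 CPM, so the overlap of the sums does not describe the other members. Without the genotype term 5 of the 13 were called higher.

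The tumour minus day 7 difference of these genes was also computed within each genotype. Neutrophil genes had a median difference of 1.49 in WT and 5.85 in KO, and cytokines 1.45 and 4.01. Of the 13 neutrophil genes 4 were higher in WT and 11 in KO, with 1 lower in each. Of the 19 cytokine genes 8 were higher in WT and 15 in KO, with none lower. Their levels were low in KO colon at day 7. The summed cytokine level was 105, 299 and 158 CPM in the WT and 27.7, 24.4 and 58.5 in the KO day 7 colons, against 472, 544 and 1480 in WT and 340, 434 and 623 in KO tumours. In edgeR the difference between genotypes passed for no gene (0%, smallest adjusted p 0.484, 1784 genes at an unadjusted p under 0.05), and in DESeq2 for 77, 68 of them with a higher tumour minus day 7 difference in KO and 9 with a lower one. Among those 9 were the Y-linked Eif2s3y (-22.67) and Uty (-21.95), and sex was not balanced between the libraries. For S100a8 the difference between genotypes was 5.32 (edgeR adjusted p 0.484, DESeq2 adjusted p 0.000431). Without WT day 7 replicate 3, edgeR called 10. Within genotypes, 5128 genes passed in WT (28.1%; 12.8% higher, 15.3% lower) and 7054 in KO (38.7%; 20% higher, 18.7% lower). Among the genes with the smallest interaction p, the phagocyte oxidase subunit Cybb, the formyl peptide receptor Fpr2 and Igsf6 had larger differences in KO, and the peptidase Dpp4 (-0.80 in WT, -2.63 in KO) and the pyrimidine enzyme Umps (-0.19 and -0.95) more negative ones, while the haem enzyme Cpox had opposite signs (0.51 and -0.49).

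Other immune cells differed by type. Macrophage genes were moderately higher (11 of 14, 1 lower, median 1.12), such as the complement gene C1qb at 43.8 to 74.1 CPM in tumours and 7.31 to 30.8 at day 7 (1.56 ± 0.26, adjusted p 0.000612) and Tyrobp, a myeloid signalling adaptor (1.86 ± 0.30). The exception was Cd163, a haemoglobin scavenger receptor of resident macrophages, at 0.0699 to 0.156 CPM in tumours and 0.818 to 5.44 at day 7 (-4.07 ± 0.48, adjusted p 6.77e-05). T cell genes were higher for 10 of 14 (median 1.22), led by the T cell receptor constant gene Trac (2.53 ± 0.44), at low levels throughout. Within genotypes, 1 of the 14 was higher in WT and 10 in KO (all genes 12.8% and 20%). Of the macrophage genes 4 were higher in WT and 12 in KO, with 1 lower in each. In edgeR the difference between genotypes passed for none of these. In DESeq2 it passed for Tyrobp, the macrophage gene Aif1 and the granzyme gene Gzmb, each with a larger difference in KO. Mast cell genes were higher for 9 of 10 (median 4.53): Mcpt1, a protease of mucosal mast cells, measured 8.86, 9.36 and 23.8 CPM in WT and 31.9, 10.7 and 33.2 in KO tumours, and at most 2.11 at day 7 (4.91 ± 0.69, adjusted p 0.000195, and 5.95 without WT day 7 replicate 1). The IgE receptor chain Fcer1a was at 0.0448 CPM or less at day 7 and at 0.155 to 1.37 CPM in tumours (5.56 ± 0.82). Kit, which interstitial cells of Cajal also express, was the lower member (-0.78 ± 0.22).

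B cell genes went the other way. Cd79a, a signalling chain of the B cell receptor, stood at 18.1, 60.9 and 6.47 CPM in WT and 8.18, 5.11 and 1.06 in KO colon at day 7, and at 2.69, 0.14 and 2.05 in WT and 0.71, 2.16 and 0.914 in KO tumours. KO day 7 replicate 3 lay within the tumour range, and WT day 7 replicate 2 held the highest value. The difference was -3.08 ± 0.84 (adjusted p 0.0103), and -2.42 without WT day 7 replicate 2. Of 11 B lineage genes 7 were lower and 1 higher. The immunoglobulin A gene Igha and Jchain of plasma cells did not pass (1.45 ± 0.71 and 1.52 ± 0.73, adjusted p 0.113 and 0.106), and the higher gene, Sdc1 (0.63 ± 0.11), is also an epithelial proteoglycan.

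Genes induced by interferons were higher in part. Of 18 interferon-gamma and MHC class II genes, 12 were higher in tumours and none lower (median 1.24), and of 17 type I genes 6 were higher and none lower. The GTPases Gbp4 and Iigp1, which defend cells against intracellular microbes, were higher by 2.73 ± 0.38 and 3.19 ± 0.63. WT tumour replicates 1 and 3 stood out, with Iigp1 at 251 and 487 CPM against 14.9 to 69.7 in the other 4 tumours. MHC class II was higher for H2-Ab1 (1.15 ± 0.34) and the invariant chain Cd74 (1.41 ± 0.46), while H2-Aa did not pass (0.73 ± 0.40, adjusted p 0.152). Among type I genes the RNA sensor Ddx58 was 1.67 ± 0.18 higher and the deubiquitinase Usp18 2.69 ± 0.38, while Isg15, Irf7, Mx1 and Rsad2 did not pass. The type I list had 3 calls without the genotype term and 2 without the 3 libraries that stand apart (WT day 7 replicate 2, WT tumour replicate 1, KO tumour replicate 2), and the interferon-gamma list had 7 without the genotype term.

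Epithelial defence genes were called in both directions, as were all genes. Lcn2, which starves bacteria of iron, was at 73 to 338 CPM in tumours and 1.68 to 29.2 at day 7 (4.70 ± 0.66), and the secreted phospholipase Pla2g2a was 2.30 ± 0.36 higher. Pigr, the carrier of immunoglobulin A across epithelium, was lower at 498 to 1730 CPM against 3230 to 6780 (-2.21 ± 0.31), as was the acute-phase protein Saa1 (-2.68 ± 0.33), while Saa3 was higher (3.09 ± 0.74). The oxidant enzymes Nos2 (0.78 ± 0.62) and Duox2 (-0.76 ± 0.37) did not pass between the tissues and were both above untreated colon in each. In all, 5 of 13 were higher and 3 lower, beside 24.3% and 24.8% of all genes.

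Matrix-degrading enzymes were higher in tumours. Of 12 metalloproteinases 8 were higher and none lower, with a median of 2.27 and no overlap for 6. Within genotypes 6 were higher in WT (median 1.25) and 9 in KO (median 3.18). The difference between genotypes passed for none of them in edgeR, and in DESeq2 for Mmp10 and Mmp13. Mmp13, a collagenase, measured 158, 304 and 923 CPM in WT and 248, 173 and 379 in KO tumours, and 29.9, 116 and 16.3 in WT and 2.93, 2.04 and 2.13 in KO at day 7 (4.82 ± 0.91, adjusted p 0.00115). Mmp9, a gelatinase of neutrophils, was 4.54 ± 0.92 higher (5.54 for Mmp13 and 5.26 for Mmp9 without WT day 7 replicate 2) and the membrane-bound Mmp14 1.80 ± 0.26. Mmp10 was 4.76 ± 1.07 higher. Mmp3, at 69.2 ± 89.2 against 27.5 ± 43.9 CPM, did not pass (1.95 ± 0.80, adjusted p 0.0631), nor did Mmp8, Mmp15 or Mmp19. Stromal genes gave fewer calls, to be read beside the 24.3% higher and 24.8% lower over all genes. Of 15 fibroblast and matrix genes 5 were higher, among them Pdgfrb (1.25 ± 0.33) and Sparc (0.89 ± 0.23), and 3 lower, the matrix proteins Postn (-1.87 ± 0.47) and Lum (-1.77 ± 0.45) and the fibroblast protease Fap (-1.02 ± 0.26). Within WT none of the 15 was higher and 3 were lower (median -0.06). Within KO 9 were higher and none lower (median 1.23), and the difference between genotypes passed for none in edgeR. Of 12 endothelial genes 3 were higher, Cdh5 (1.22 ± 0.35), Vwf (1.06 ± 0.30) and Prox1. WT day 7 replicate 2 weighed on both lists, with a summed fibroblast level of 6900 CPM against a day 7 median of 1970 CPM: without it 10 fibroblast and 9 endothelial genes were higher.

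Keratins and adhesion genes of squamous epithelium were higher in tumours than in day 7 colon. Of 12 tested 8 were higher and none lower (median 3.87). Krt14, a keratin of basal cells, was at 5.03, 20.5 and 42.8 CPM in WT and 51.1, 150 and 74 in KO tumours, and at 1.3 to 3.97 at day 7 (4.34 ± 0.66, adjusted p 0.000299). Krt6a, a keratin of stressed epidermis, was at 0.937, 1.64 and 9.63 CPM in WT and 9.4, 111 and 15.9 in KO tumours and at most 0.193 at day 7, 202-fold. KO tumour replicate 2 carried the most, with a summed level of 733 CPM against 77.9 to 184 in the other 5 tumours, and without it the Krt6a difference was 6.22 instead of 7.66. High sums were not confined to tumours. Among DSS day 13 colons of the series, outside the comparison, WT replicate 3 summed to 5510 CPM and KO replicate 1 to 1330 CPM. The remaining day 13 colons had 6.96 to 54.8 CPM. Krt5 was not called (3.41 ± 3.31, adjusted p 0.416). With a minimum of 1 CPM in 6 libraries 5 genes of the list were called.

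Genes of mature colonocytes were lower in tumours. Of 19 absorptive markers 16 were lower and 1 higher, with a median of -2.53. Car4, a carbonic anhydrase of surface cells, measured 1160, 856 and 2220 CPM in WT and 876, 1040 and 679 in KO colon at day 7, against 57.6, 7.41 and 13.2 in WT and 4.12, 10.6 and 4.42 in KO tumours (-6.45 ± 0.63, adjusted p 2.18e-05). No values overlapped, the tumour level was 87.3-fold lower, and WT tumour replicate 1 held the highest tumour level (-7.10 without it). The sulfate carrier Slc26a2 was changed by -3.99 ± 0.47, the chloride exchanger Slc26a3 by -6.09 ± 1.24 and the water channel Aqp8 by -6.16 ± 1.31. Car4 at day 7 did not differ from untreated colon (0.21, adjusted p 0.742), and of the 19 genes none was called lower than untreated colon at day 7 and 1 higher, against 16 lower in tumours. Without KO untreated replicate 3, 3 were lower and 2 higher at day 7 and 14 lower in tumours, and DESeq2 called 3 lower at day 7. Guca2b, a gut hormone precursor, was the higher member (1.27 ± 0.43). The same direction held in the enzymes that clear drugs and xenobiotics, where 14 of 16 were lower and none higher (median -2.83). Among the lower ones were the glutathione transferase Gstt1 (-3.09 ± 0.22) and the sulfotransferase Sult1a1 (-3.94 ± 0.63).

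Genes of secretory lineages were lower too. Of 14 goblet cell genes 8 were lower and none higher (median -1.42). Clca1, a mucus-processing protease, was at 3540, 3940 and 6270 CPM in WT and 2070, 1780 and 5430 in KO at day 7, and at 494, 76.8 and 124 in WT and 148, 184 and 328 in KO tumours (-4.09 ± 0.52, adjusted p 0.000101). Muc2, the main gel-forming mucin, was lower (-1.93 ± 0.55, adjusted p 0.013) but overlapped, since WT tumour replicate 1 had 4280 CPM where the other 5 tumours had 149 to 715 (-2.64 without it). Against untreated colon Muc2 in tumours was lower (-1.61, adjusted p 0.0189), a call lost without KO untreated replicate 3 (-0.74, adjusted p 0.185). Clca4b, a channel regulator of the same family as Clca1, did not pass between the tissues (-0.42 ± 0.57, adjusted p 0.569), yet rose from 19.7 CPM in untreated colon to 964 CPM in tumours and 1550 CPM at day 7 (6.02 and 6.41, adjusted p 6.92e-06 and 2.99e-05).

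Enteroendocrine genes were lower for 9 of 11, with a median of -3.35. Chga, a granule protein of most endocrine cells, was at 37.1 to 121 CPM at day 7 and 1.01 to 6.09 in tumours (-3.80 ± 0.43), and the colonic hormone gene Insl5 at 44.1 to 88.1 against 0.0699 to 2.5 (-6.04 ± 0.65). The exception, the hormone Nts, was higher (3.69 ± 0.54) at low levels. Tuft cell genes showed no common direction, with 3 higher and 2 lower of 8: Avil, an actin regulator, rose from 1.79 to 4.99 CPM to 26.4 to 193 (5.09 ± 0.48), while the kinase Dclk1 was lower (-1.33 ± 0.33) and the channel Trpm5 was lower on the count scale (-1.45 ± 0.42, adjusted p 0.0145) and not on the log2(TPM + 1) scale (adjusted p 0.995). The tuft cell genes Pou2f3, Gfi1b and Il25 were too low to test.

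Epithelial genes shared by all these lineages differed less. Epcam, an adhesion protein of all gut epithelium, did not pass (-0.19 ± 0.13, adjusted p 0.223), Krt8 and Krt19 were lower by under 1 (-0.86 ± 0.23 and -0.95 ± 0.22), and Krt18 was higher (1.08 ± 0.15). Of 10 such genes 7 were lower and 1 higher (median -0.56), and their sum was 5880 to 12200 CPM in tumours and 11000 to 16500 at day 7. Transcription factors of intestinal identity followed: Cdx1 (-1.67 ± 0.27), Hnf4a (-1.37 ± 0.26) and Klf4, which drives terminal differentiation (-2.54 ± 0.35), were lower, and Foxa1 (0.64 ± 0.07) and Hoxa9 were higher. In that list 6 of 15 were lower and 2 higher. Of 14 junction genes 7 were lower, such as Cldn8, a claudin of the distal colon (-3.54 ± 0.52), and Cldn4 was higher at 299 to 536 CPM against 55.1 to 130 (2.31 ± 0.21, adjusted p 1.47e-05).

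**Figure D4:**
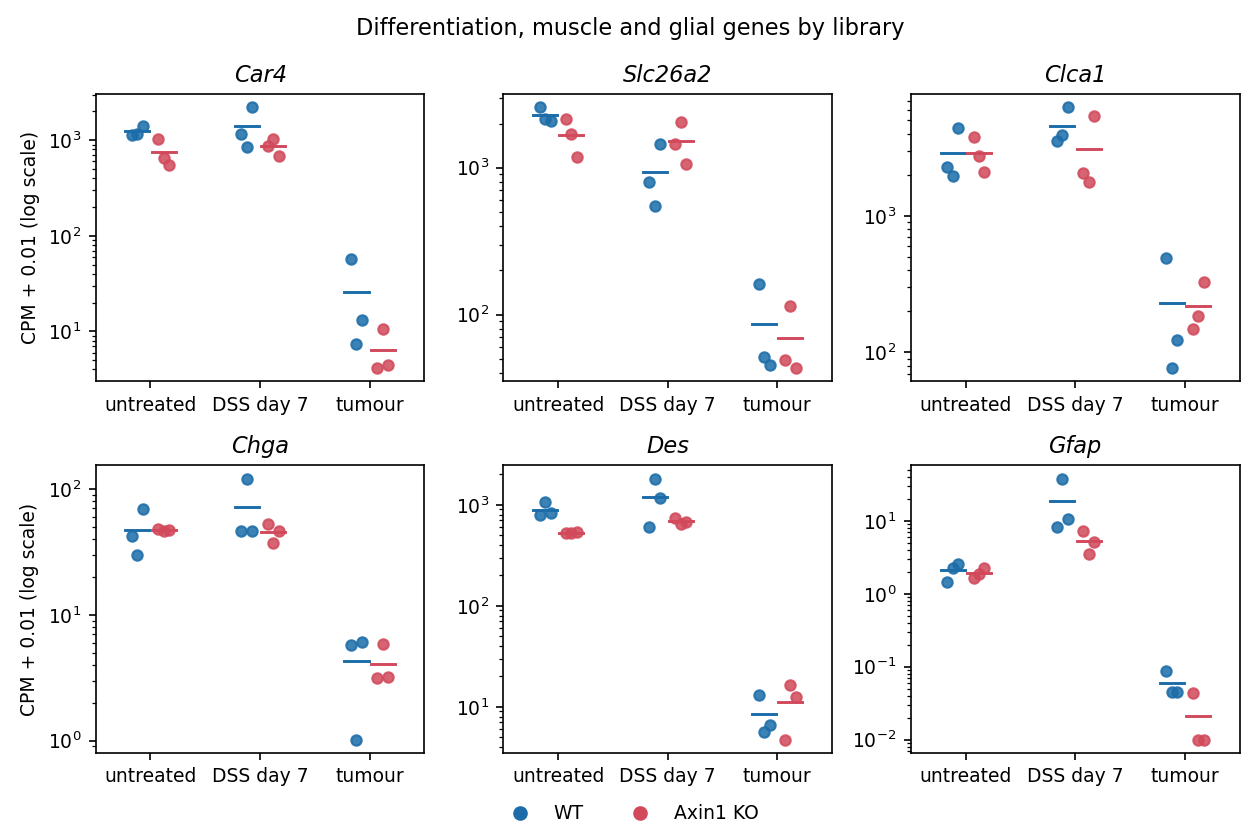
Levels of 6 genes of mature epithelium, smooth muscle and enteric glia (CPM + 0.01, log axis) per library of untreated colon, DSS day 7 colon and tumours; blue points are WT, red points Axin1 KO, and short lines group means of 3. In each panel all 6 tumours lie below all 6 day 7 colons.

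The tissues also differed in what lies beneath the epithelium. All 11 smooth muscle genes were lower in tumours, without overlap, with a median of -4.64. Des (desmin), an intermediate filament of muscle, measured 606, 1820 and 1180 CPM in WT and 747, 647 and 669 in KO at day 7, and 13.1, 5.56 and 6.62 in WT and 4.73, 16.3 and 12.4 in KO tumours, 95.8-fold lower. The summed level of the list was 161 to 329 CPM in tumours, 4100 to 13300 at day 7 and 3830 to 9110 in untreated colon. Neurons and glia of the gut wall went with it, with 9 of 11 lower and none higher (median -5.16). Sox10, a transcription factor of enteric glia, was at 1.16 to 11.1 CPM at day 7 and at most 0.155 in tumours (-5.64 ± 0.78; -4.99 without WT day 7 replicate 2 and -6.33 without KO tumour replicate 2). The glial filament Gfap was at 3.58 to 38.5 CPM against at most 0.078 (-8.44 ± 0.60, and -7.79 without WT day 7 replicate 2). Among the 15 largest decreases, the serotonin receptor Htr3a, the nicotinic receptor Chrna3, Gfap, the synaptic gene Rims1, the potassium channel Kcnq3 and the neuropeptide Vip are neural. The part of these layers in the other differences was not tested. The secreted Sfrp2, Sfrp4 and Sfrp5 and the matrix gene Postn were lower in the same libraries, and which cells expressed them was not tested.

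Genes of small amounts of neighbouring tissue gave few calls. Of 6 adipocyte genes 3 were lower in tumours, Plin4, Fabp4 and Cfd, and Adipoq, Plin1, Lep and Retn were too low to test. Of 10 exocrine pancreas genes the elastase Cela1 alone was high enough to test (-1.76 ± 0.25). Cela1 was at 70.8 to 416 CPM in untreated colon, and whether its RNA came from pancreas or from colon was not tested. None of 5 red cell genes passed. Upk3b, a mesothelial gene, was among the largest decreases (0.338 to 9.81 CPM at day 7, at most 0.0387 in tumours).

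Genes of mitochondrial metabolism were lower in tumours. Of 16 genes of fatty acid oxidation 15 were lower (median -0.93), such as Cpt1a, which carries fatty acids into mitochondria, at 75 to 124 CPM in tumours and 212 to 272 at day 7 (-1.33 ± 0.14, adjusted p 2.94e-05), and the regulator Ppara (-2.39 ± 0.36). Of 16 respiratory chain genes 15 were lower (median -0.8), Cyc1 by -1.04 ± 0.15, and 1 was higher, Ndufa4 (1.10 ± 0.18). The share of mitochondrial transcripts given above was also lower in tumours. At day 7 none of the 16 respiratory genes passed against untreated colon in edgeR (1 was higher without KO untreated replicate 3, and 2 were lower in DESeq2).

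Glycolytic genes were in part lower in tumours. Of 16 glycolytic and hypoxia genes 9 were lower and 1 higher (median -0.56). The lactate dehydrogenase gene Ldha differed by -0.97 ± 0.19, Aldoa by -0.89 ± 0.13, the glucose carrier Slc2a1 by -0.74 ± 0.17 and the hexokinase Hk2 by -1.08 ± 0.31, while Pkm did not pass (-0.01 ± 0.12, adjusted p 0.969). Hk2 was above untreated colon at day 7 by 1.76 (adjusted p 0.000318) and in tumours by 0.72 (adjusted p 0.0417), the latter lost without KO untreated replicate 3 (0.67, adjusted p 0.0797). Cholesterol synthesis and uptake showed a similar order, with 11 of 15 lower in tumours and none higher (median -0.64). Sqle, the squalene epoxidase of that pathway, was at 82.2 to 115 CPM in tumours and 121 to 293 at day 7 (-1.08 ± 0.19, adjusted p 0.000844). At day 7, 9 of the 15 were above untreated colon (median 0.66), and in tumours 2 were above it and 3 below, which became 6 above and 1 below without KO untreated replicate 3.

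The remaining signalling lists had members of both directions, as did all genes (24.3% higher, 24.8% lower). In the BMP pathway, whose signal opposes Wnt along the crypt axis, 7 of 14 genes were higher and 4 lower. Bmp7 (2.83 ± 0.36), Bmp4 (1.46 ± 0.26) and the target genes Id2 (1.85 ± 0.24) and Id3 (1.81 ± 0.26) were higher, and Bmp2 (-1.44 ± 0.27), Bmp3 (-2.41 ± 0.54) and the inhibitor Chrdl1 (-4.31 ± 0.62) were lower. In prostaglandin metabolism 3 of 13 were higher and 5 lower. The inducible cyclooxygenase Ptgs2 measured 35.4, 32.6 and 156 CPM in WT and 48.2, 25.7 and 78.7 in KO tumours, and 14.3, 47.2 and 6.53 in WT and 6.11, 4.56 and 3.87 in KO at day 7 (2.51 ± 0.61, adjusted p 0.00551, and 3.10 without WT day 7 replicate 2). Ptges, the synthase of the E-series prostaglandin, was 1.33 ± 0.38 higher. The enzyme that degrades it, Hpgd, was lower at 10.7 to 38.4 CPM against 39 to 103 (-2.0 ± 0.35), as was the uptake carrier Slco2a1 (-2.27 ± 0.19, adjusted p 9.18e-06) and the receptor Ptger3.

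**Figure D5:**
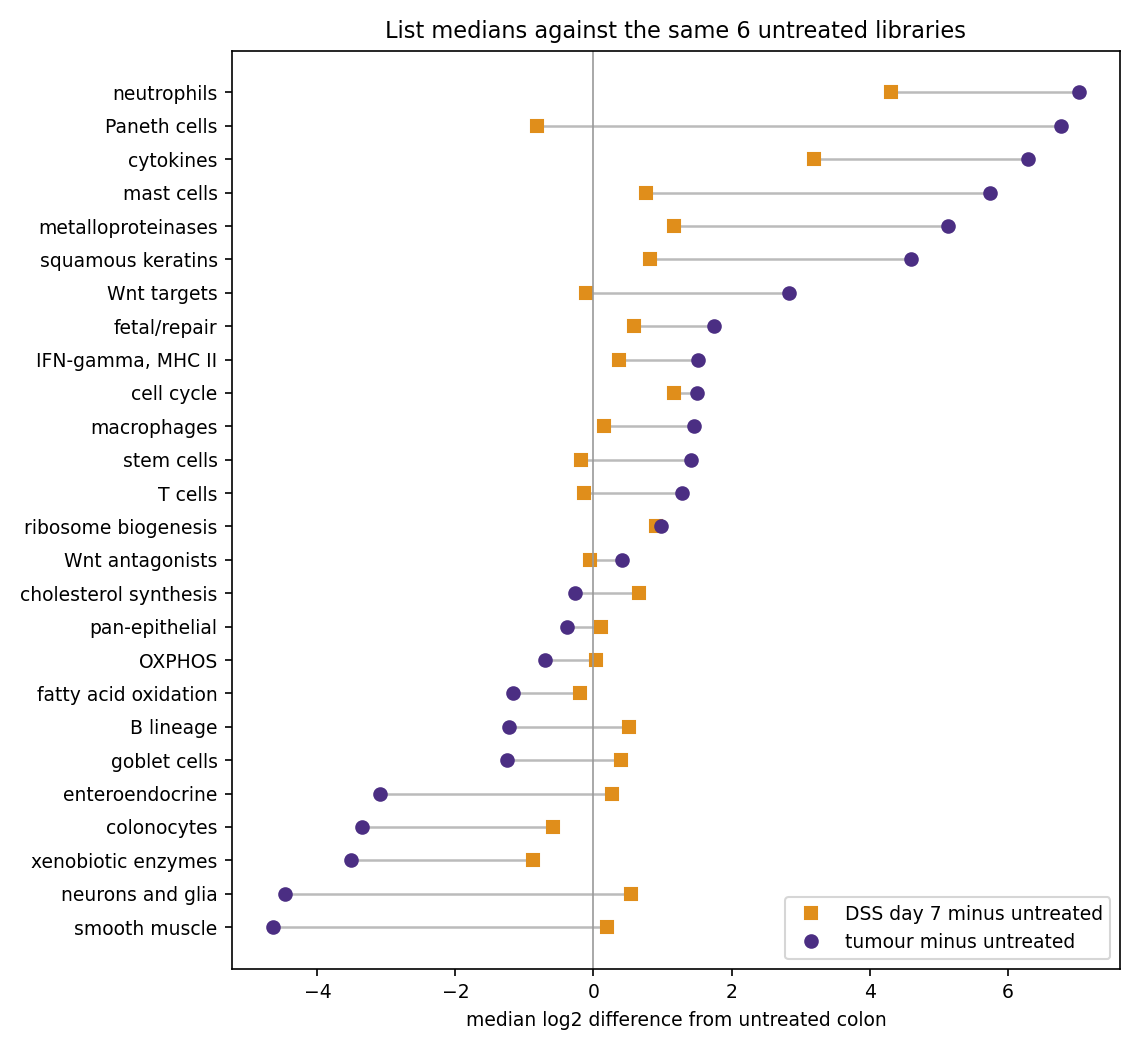
Median log2 difference from untreated colon of 26 gene lists, purple circles for tumours and orange squares for DSS day 7, both against the same 6 untreated libraries; lists are ordered by the tumour value. Cell cycle and ribosome biogenesis medians lie close together, cytokine and neutrophil medians are raised in both, and Wnt target, Paneth, colonocyte, enteroendocrine, smooth muscle and neural medians are near 0 or within 1 at day 7 and far from 0 in tumours.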

How the data were processed

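RNA-seq was made from colon or tumour RNA. Per the submitters' processing notes, reads were aligned with STAR 2.7.6a to GRCm38 and quantified with RSEM 1.3.1. Neither the annotation release nor the strand setting was given in the sources used here. For each gene, the authors deposited expected counts and TPM (55487 genes), and 55141 of these were matched to a symbol in GENCODE M21. Expected counts were rounded, filtered with edgeR's filterByExpr (minimum count 10, total 15), scaled by TMM and tested with edgeR 4.0.16 (quasi-likelihood, robust) in R 4.3.3 with genotype and tissue as terms over the 12 libraries; p-values were adjusted by Benjamini-Hochberg. A fit of 4 groups gave the values within genotype and the interaction, and a fit of all 8 groups (24 libraries, 19056 genes) those against untreated colon. TPM as deposited by the authors entered only an alternative, limma 3.58.1 on log2(TPM + 1), and DESeq2 1.42.0 was another. The fits were tested on simulated data.

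Named genes were 12 general genes, up to 15 per direction with the largest difference among called genes (at least 2 CPM in the higher tissue, no overlap, no clone names), up to 3 interaction genes per direction, and the up to 6 members of smallest p in each of 40 gene lists (571 genes). Other members named, such as those that did not pass, and Sp5, Ascl2, Slc26a3, Mmp10 and Clca4b, were chosen after their values were seen. Some members count in their lists but are not reported by name here. Members and lists were chosen with earlier results of these data known. Libraries whose counts differed only by sampling were looked for and none were found. No source used here names the sequencing run. The sample numbers in the deposited names are 9 to 14 in tumours, repeat numbers of other libraries, and are 15 and 16 in KO day 7 replicate 3 and WT day 7 replicate 2 as in 2 untreated libraries, so which libraries shared a run with the tumours is not known. If tumours and day 7 colons were run apart, run and tissue cannot be told apart in the comparison. Mice of a group are separate replicates per the design text; for a gene with no count in a tissue, the fold is against a floor of 3 counts over its 6 libraries, which covers counting error only.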

Additional observations from a re-analysis of the deposited data

Results flagged for a closer look

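Cpox, an enzyme of haem synthesis, moved in opposite directions in the genotypes. All 3 WT tumours (32.3, 31.4 and 24.7 CPM) lay above all 3 WT day 7 colons (21.7, 16.4 and 21.5), and all 3 KO tumours (24.3, 21.1 and 21.4) below all 3 KO day 7 colons (34.3, 29.2 and 29.4). The tumour minus day 7 difference was 0.51 ± 0.16 in WT and -0.49 ± 0.16 in KO (edgeR adjusted p 0.0333 and 0.0308). KO minus WT it was -1.0 ± 0.22, with an adjusted p over all genes of 0.484 in edgeR, where it failed the correction, and of 0.0149 in DESeq2 (-1.01), where it passed.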

How the results depend on the processing

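Between tumours and day 7 colon, 4435 genes were higher and 4527 lower. Tested against a 2-fold difference (glmTreat), 1232 were higher and 1254 lower; limma on log2(TPM + 1) gave 7892 and 2653, with the median of all genes up by 0.25, and Trpm5 then changed sign (0.001421). DESeq2 gave 4866 and 4872, leaving out the 2 day 7 libraries with repeated sample numbers 4765 and 4656, and without the 3 libraries that stand apart, chosen after seeing the data, 5320 and 4873. Leaving out each library gave 3843 to 5193 higher and 4060 to 4981 lower. Within WT these ranges were 1484 to 2810 and 1672 to 2964, lowest without WT tumour replicate 3 (1512 and 1692 without replicate 2), and within KO 2667 to 4228 and 2219 to 3916. For the interaction DESeq2 called 68 higher and 9 lower, and leaving out each library 0 to 10 higher in edgeR. Without KO untreated replicate 3, also chosen after seeing the data, 6661 genes were higher and 5352 lower in tumours than in untreated colon, and 3017 and 2021 at day 7. Of the 265 named genes 10 were lost without the genotype term, 6 with Y-linked expression as a term and 87 under glmTreat. Low counts limit genes under about 1 CPM. No paired analysis was possible, since the day 7 mice were sacrificed at day 7 and the tumours came from other animals. The labels give no replicate numbers, and those used here count the libraries of each group in deposited order.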
